A study of Mus musculus with 14 samples.

Results

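The clustered protocadherins are cadherin-type adhesion proteins encoded in 3 neighbouring gene arrays, alpha, beta and gamma, on mouse chromosome 18. They were taken from the deposited count tables by gene symbol, as all protein-coding rows named for an alpha, beta or gamma member, which gave 56 of 55291 rows: 13 alpha, 22 beta and 21 gamma. The 13 alpha rows stand for 14 loci, because 1 row, Pcdha11, names 2 loci. Pcdhgb8, annotated as a polymorphic pseudogene, was not a member and held 148 counts over all libraries. The rows were selected by name, but the family itself was chosen by the lower CPM of Pcdhb16 in these APPko libraries, already known, so the differences of its members between the genotypes are given as a description. Calls and intervals from the fit over all genes are printed for them in that sense alone, and no test was made of the family itself.

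Organotypic slices of mouse hippocampus with entorhinal cortex were kept in culture, and the polyadenylated RNA of the isolated dentate gyrus was sequenced. 8 libraries came from APPko cultures, labelled APP-/-, made from mice that lack the amyloid precursor protein through a targeted App allele present in all cells. 6 libraries came from wildtype cultures, labelled APP+/+, of C57BL/6J mice. In both genotypes the slices were cut at postnatal day 4 to 5, matured for at least 18 days with no other agent named, and gave 1 dentate gyrus per library. The labels call the libraries biological replicates but do not say which cultures shared an animal, so the SDs and any p-values cover only differences among cultures. The labels also do not say how closely the APPko line matches C57BL/6J outside App, so genotype and any remaining difference in strain cannot be told apart.

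Each protocadherin of the 3 clusters has 6 extracellular cadherin repeats, and most bind their own kind on the facing cell. A neuron switches on a small set of the variable promoters, through CTCF, cohesin and DNA methylation, and the resulting mix is known to let a neuron tell its own branches from those of other neurons. Alpha and gamma transcripts splice 1 variable first exon to constant exons shared by the whole cluster, which encode a common cytoplasmic tail. Beta genes are single units with no shared constant exons. The 5 C-type members, at the ends of the alpha and gamma arrays, are known to be expressed more evenly among neurons than the others.

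Total counts per library ran from 16686909 to 31031126. App had 214.3 ± 17.9 CPM in APPko libraries (SD, n = 8), between 181.8 and 231.0, and 809.5 ± 131 CPM in wildtype libraries (SD, n = 6), between 679.3 and 964.4, so every library matched its label and App RNA was still counted in APPko. CPM values here are library-normalised read counts scaled by TMM, edgeR's correction for library composition. The scaling factors of wildtype libraries 2 and 3 were 0.852 and 0.847, against 0.976 to 1.09 in the other 12 libraries. The column headers carry a suffix, f on 7 APPko and 3 wildtype libraries and m on 1 APPko and 3 wildtype libraries, whose meaning the labels do not state. Neuronal and granule cell markers were detected, as were markers of astrocytes, microglia, oligodendrocytes, endothelial cells, interneurons and fibroblasts, and none of the 51 markers was at 0 in all libraries. The libraries therefore hold the RNA of mixed tissue, in which fewer cells of a type and less RNA per cell cannot be told apart.

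The alpha array spans bases 36930184 to 37187661 of chromosome 18 (GRCm38), the beta array 37264938 to 37524479 and the gamma array 37661793 to 37841873, all members on the plus strand. Of the 22 beta genes 3 share exon bases with another gene. In Pcdhb12 the antisense neighbour Gm37446 leaves 36.5% of the exon bases unshared, and Pcdhb21 and Pcdhb22 overlap each other, which leaves 90.3% and 93.1% unshared. A median of 46.4% of alpha and 54.8% of gamma exon bases were unshared. Reads on the constant exons were evidently not credited to each isoform: Pcdhga10, with 0 unshared bases, had 0 counts in all 14 libraries. Of its exon bases 2613 are shared only with the opposite strand, where Gm26672 lies, so its 0 does not measure its level. Alpha and gamma values therefore rest mainly on the variable exons, and levels of genes are compared within a cluster, as CPM per kilobase of unshared exon.

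The beta cluster carried most of the family's counts, with 2473 to 4082 counts per APPko library and 2857 to 4245 per wildtype library. The gamma cluster had 560 to 913 counts per APPko library and 290 to 950 per wildtype library, and the alpha cluster 282 to 438 per APPko library and 161 to 605 per wildtype library. The order of genes within a cluster was much alike in both genotypes, with a Spearman rho over genes of 0.98 in beta (22 genes), 0.97 in alpha (13 genes) and 0.91 in gamma (20 genes); the points of each genotype share libraries, and genes are not independent replicates.

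In the beta cluster the highest level per kilobase was that of Pcdhb9, at 3.79 ± 0.18 CPM per kilobase in APPko and 5.74 ± 1.30 in wildtype. Pcdhb7 followed with 3.96 ± 0.61 in APPko and 5.23 ± 0.51 in wildtype, and Pcdhb17 with 3.43 ± 0.23 in APPko and 4.25 ± 0.56 in wildtype. In wildtype the SD ranges of successive genes in this order overlapped, only narrowly between Pcdhb7 and Pcdhb17. In APPko Pcdhb7 averaged above Pcdhb9 by less than the SD of Pcdhb7. The lowest beta gene past the expression filter was Pcdhb2, at 0.174 ± 0.111 CPM per kilobase in APPko and 0.135 ± 0.080 in wildtype. By CPM, the 4 genes Pcdhb17, Pcdhb7, Pcdhb9 and Pcdhb16 together held 41.6% of the beta cluster in APPko and 44.1% in wildtype. Level followed position only loosely, with a rho of 0.40 between wildtype level and order along the array (22 genes).

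In the alpha cluster Pcdhac2, a C-type gene, stood highest, at 1.59 ± 0.22 CPM per kilobase in APPko and 1.28 ± 0.59 in wildtype. The next in wildtype was Pcdha8, with 0.504 ± 0.122 in APPko and 0.702 ± 0.163 in wildtype, and its wildtype spread touched that of Pcdhac2. Pcdha6 was the lowest past the filter, at 0.140 ± 0.096 in APPko and 0.221 ± 0.141 in wildtype. In the gamma cluster Pcdhga12 led with 1.96 ± 0.38 in APPko and 2.05 ± 0.65 in wildtype. Pcdhgb4 followed with 0.912 ± 0.179 in APPko and 1.25 ± 0.59 in wildtype, and the C-type gene Pcdhgc4 reached 0.863 ± 0.151 in APPko and 0.916 ± 0.152 in wildtype. Pcdhga1 was the lowest gamma gene past the filter, with 0.175 ± 0.102 in APPko and 0.110 ± 0.071 in wildtype.

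**Figure D1:**
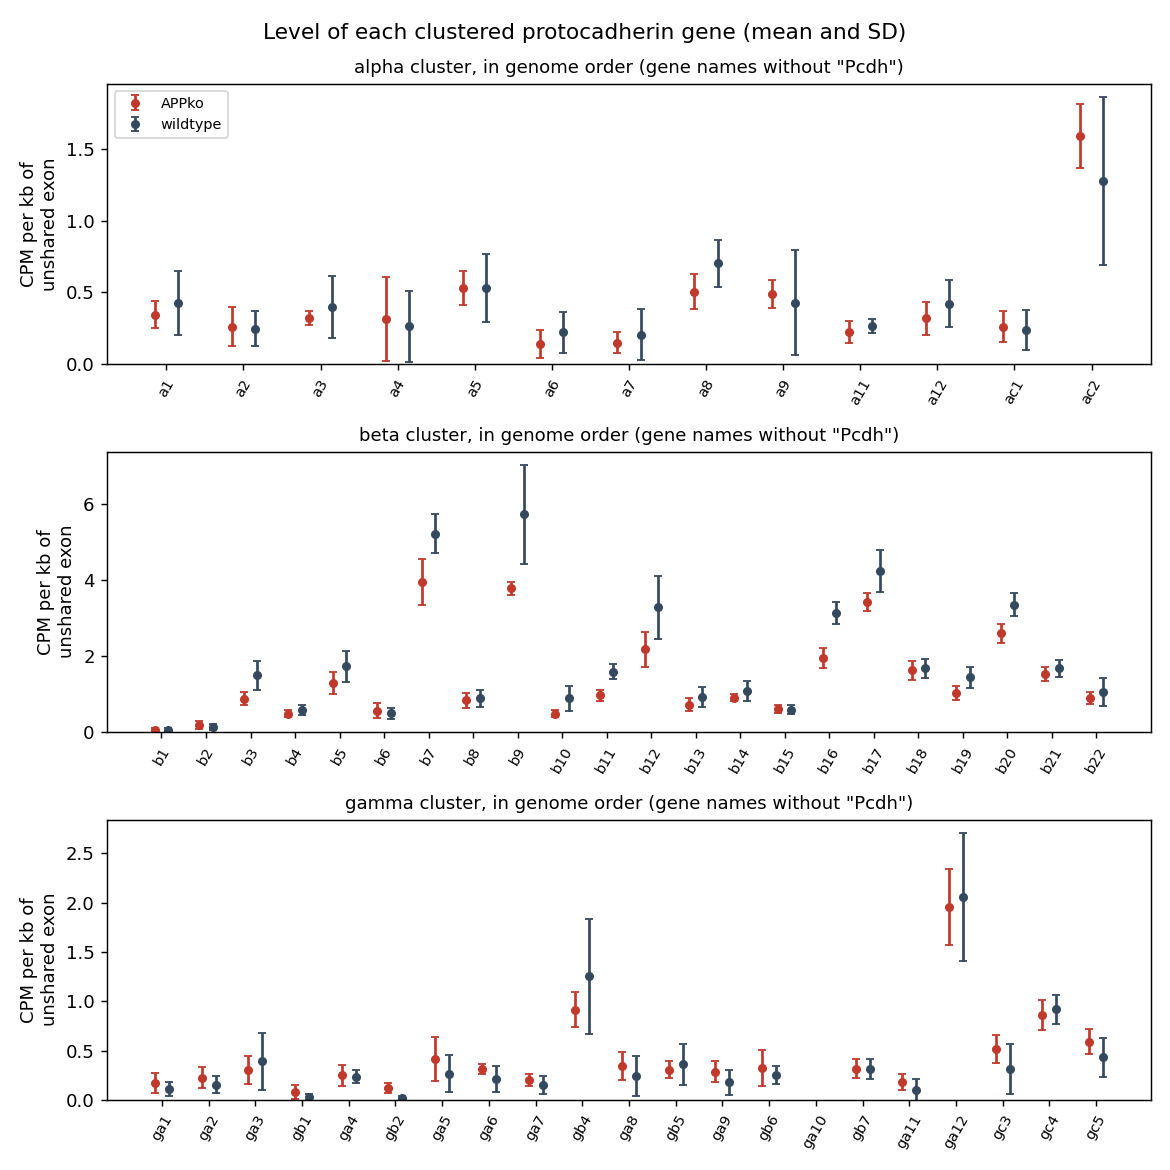
Mean level of each clustered protocadherin gene in APPko (red, n = 8) and wildtype (blue, n = 6), in CPM per kilobase of unshared exon with SD bars, by cluster and in genome order on the x axis. Pcdhac2 leads the alpha cluster and Pcdhga12 the gamma cluster, while Pcdhb7, Pcdhb9 and Pcdhb17 stand highest in the beta cluster.

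The beta cluster was lower in APPko cultures. Its summed level was 109.7 at the lowest, 126.9 at the median and 130.8 CPM at the highest in APPko libraries, against 143.5, 166.2 and 172.3 CPM in wildtype libraries. The lowest wildtype library stood above the highest APPko library, so the groups did not overlap. The sum includes Pcdhb16, the gene by which the family was chosen. The APPko mean, 124.0 ± 7.54 CPM (SD, n = 8), was 24.1% below the wildtype mean of 163.3 ± 10.5 CPM (SD, n = 6), a log2 ratio of -0.40. The gap depended in part on the scaling: by total counts alone the sums were 113.2 to 142.3 CPM in APPko and 139.5 to 173.2 CPM in wildtype, which overlapped, with a log2 ratio of -0.30. Among f libraries the sums were 109.7 to 130.8 CPM in APPko and 165.0 to 172.3 CPM in wildtype, and among m libraries 129.0 CPM in the single APPko library and 143.5 to 167.5 CPM in wildtype. Leaving out any 1 library kept the log2 ratio between -0.43 and -0.37.

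The alpha and gamma clusters showed no such gap. The alpha sum was 12.27, 13.36 and 15.57 CPM (lowest, median, highest) in APPko and 8.66, 13.2 and 20.45 CPM in wildtype, with means of 13.65 ± 1.17 CPM in APPko and 13.95 ± 3.95 CPM in wildtype and a log2 ratio of -0.03. The gamma sum was 23.29, 27.62 and 32.45 CPM in APPko and 13.96, 27.63 and 35.5 CPM in wildtype, with means of 27.91 ± 3.26 CPM in APPko and 26.67 ± 8.17 CPM in wildtype and a log2 ratio of 0.07. In both clusters the APPko values lay inside the wildtype range. By header suffix, the gamma sum was 23.29 to 32.45 CPM in APPko f libraries and 24.21 CPM in the APPko m library, and 13.96 to 23.15 CPM in the 3 wildtype f libraries and 32.11 to 35.5 CPM in the 3 wildtype m libraries, so the wildtype libraries separated by suffix. Among f libraries alone the gamma log2 ratio was 0.51 and the groups did not overlap. The part of the suffix in the gamma values was not tested.

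**Figure D2:**
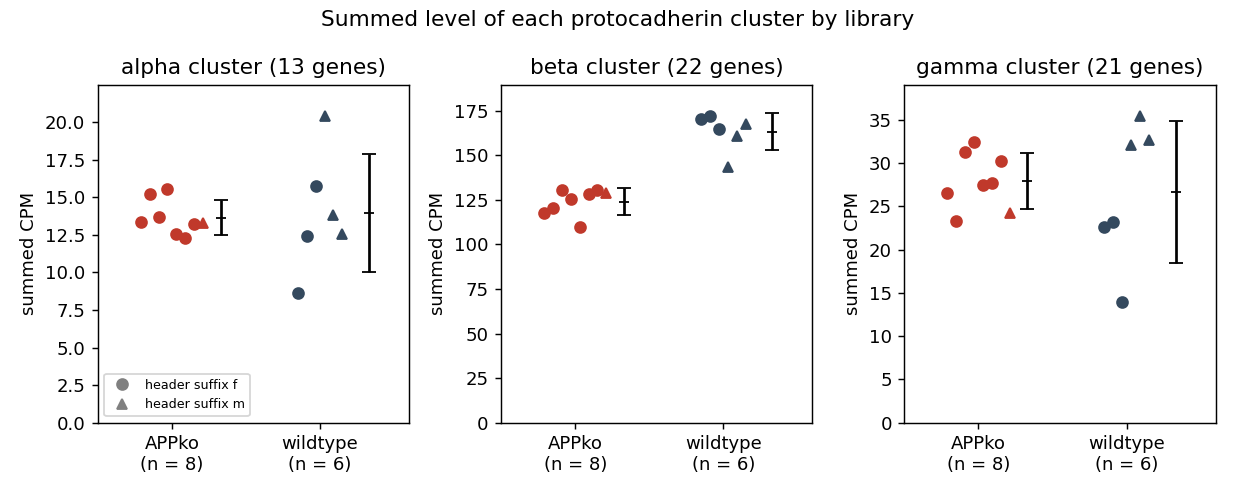
Summed CPM of the alpha, beta and gamma clusters on the y axis, with 1 point per library for APPko (red) and wildtype (blue), the shape marking the header suffix (circle f, triangle m) and the bars the mean and SD. Beta sums reach 130.8 CPM at most in APPko and start at 143.5 CPM in wildtype, while alpha and gamma sums overlap.

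Gene by gene, 21 of the 22 beta rows passed the expression filter, and edgeR's quasi-likelihood test with Benjamini-Hochberg adjustment over all 22150 tested genes put 5 of them past its threshold of 0.05, all lower in APPko. Of all tested genes 1.41% were called lower and 0.944% higher (3.38% higher with DESeq2 and 0.822% with limma's voom). As the family was taken up from this same comparison, the count is given as a description and nothing is read from it. None of the beta genes was called higher by edgeR, DESeq2 or limma's voom, and 0 had an unadjusted p under 0.05 in that direction. The fitted log2 change was negative in 18 of the 21 genes and positive in 3, with a median of -0.36, beside 51.7% negative and a median of -0.01 over all tested genes. In the same 5 genes every APPko library lay below every wildtype library, which held for 0.609% of tested genes.

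Pcdhb16, at bases 37477814 to 37483038, had 8.74, 9.64 and 12.5 CPM (lowest, median, highest) in APPko and 13.7, 16.6 and 18.0 CPM in wildtype. Its mean fell to 10.2 ± 1.38 CPM in APPko, against 16.4 ± 1.49 CPM in wildtype, a fitted log2 change of -0.69 with an SE of 0.11. It was the gene in view when the family was chosen. Without single libraries the share of all tested genes called lower ranged from 0.0733% (without APPko 5) to 3.1% (without wildtype 4).

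Pcdhb11, at bases 37421418 to 37425836, had 3.38, 4.31 and 5.18 CPM in APPko and 5.83, 7.01 and 8.45 CPM in wildtype. Its mean fell to 4.24 ± 0.63 CPM in APPko, against 7.03 ± 0.89 CPM in wildtype (log2 change -0.73, SE 0.14). Its call was lost only without APPko library 5 among the single libraries left out.

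Pcdhb9, at bases 37400855 to 37403909, was even among APPko cultures, with 10.9, 11.5 and 12.5 CPM, and spread more widely in wildtype, with 12.9, 17.8 and 22.6 CPM. The highest APPko and the lowest wildtype library lay close together. Its mean fell to 11.6 ± 0.54 CPM in APPko, against 17.5 ± 3.98 CPM in wildtype (log2 change -0.60, SE 0.13). Of the 14 fits without 1 library it passed in 6, those without wildtype 1, 4, 5 or 6 and without APPko 3 or 8, and the log2 change stayed between -0.66 and -0.50.

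Pcdhb3, at bases 37300799 to 37304585, had 2.42, 3.24 and 4.48 CPM in APPko and 4.56, 5.33 and 8.50 CPM in wildtype. Its mean fell to 3.32 ± 0.68 CPM in APPko, against 5.68 ± 1.45 CPM in wildtype (log2 change -0.77, SE 0.18). It passed in 5 of the 14 fits without 1 library, those without wildtype 1, 4, 5 or 6 or without APPko 8, with log2 changes of -0.84 to -0.62.

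Pcdhb10, at bases 37411664 to 37414514, was the lowest expressed of the 5, with 1.03, 1.40 and 1.93 CPM in APPko and 2.02, 2.20 and 4.41 CPM in wildtype. Wildtype library 1 alone gave the highest value, and the other wildtype libraries lay just above the highest APPko library. Its mean fell to 1.37 ± 0.29 CPM in APPko, against 2.53 ± 0.93 CPM in wildtype (log2 change -0.87, SE 0.22). It passed in 3 of the 14 fits, those without wildtype 4, wildtype 5 or APPko 8, with log2 changes of -0.95 to -0.63.

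**Figure D3:**
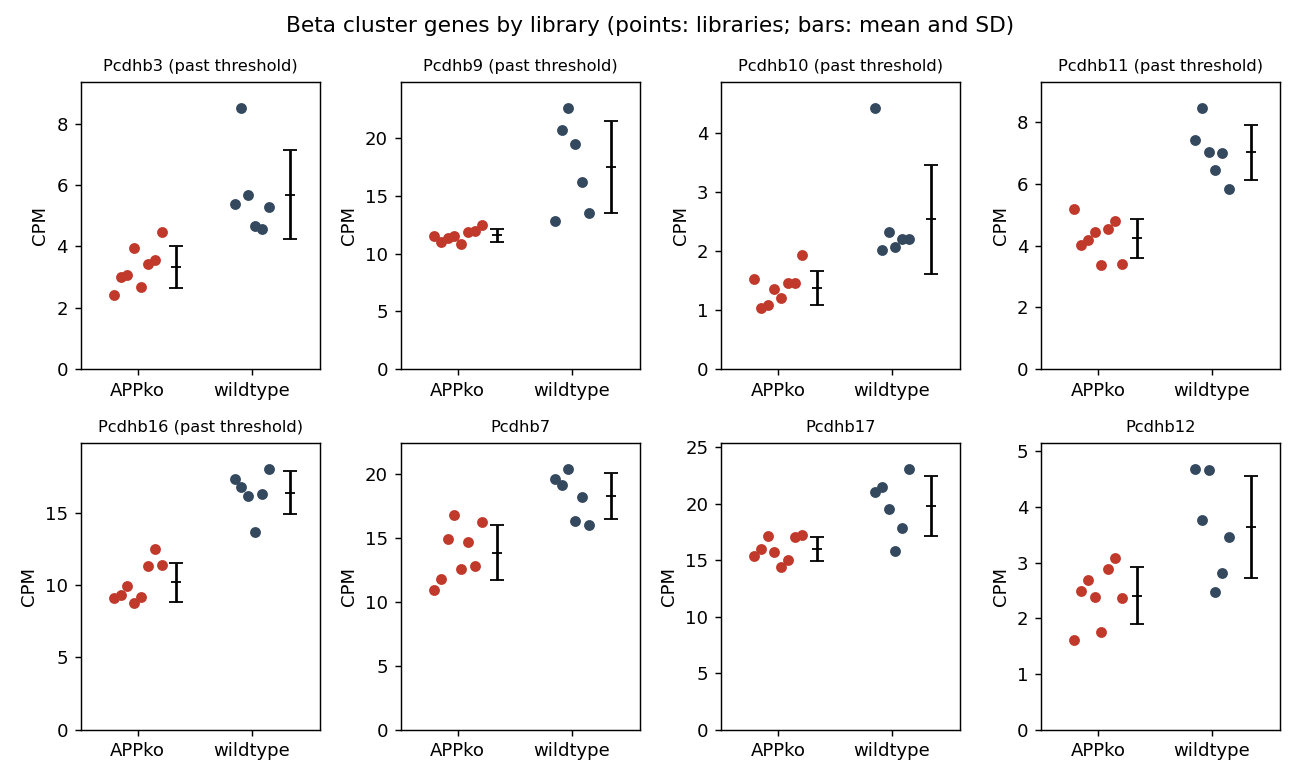
CPM per library (points) with mean and SD (bars) for the 5 beta genes called by edgeR and 3 that it did not call, Pcdhb7, Pcdhb17 and Pcdhb12, APPko in red at the left and wildtype in blue at the right of each panel. In the 5 called genes all APPko points lie below all wildtype points, and in the other 3 the groups overlap.

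The 16 tested beta genes that edgeR did not call had log2 changes from -0.59 to 0.34, with a median of -0.26, and in each the groups overlapped. Pcdhb9, Pcdhb10 and Pcdhb11 lie next to each other and were all called by edgeR, and the other array neighbours of called genes were not. DESeq2 also called the neighbours Pcdhb12 and Pcdhb17 lower. Pcdhb12, next to Pcdhb11, averaged 2.41 ± 0.51 CPM in APPko and 3.65 ± 0.92 CPM in wildtype, with overlapping groups and a log2 change of -0.59 that missed the threshold. Pcdhb17, which follows Pcdhb16, averaged 16.0 ± 1.06 CPM in APPko and 19.8 ± 2.63 CPM in wildtype, a log2 change of -0.31 with a 95% interval of -0.52 to -0.10. Pcdhb15, which precedes it, averaged 1.69 ± 0.30 CPM in APPko and 1.65 ± 0.31 CPM in wildtype, with an interval of -0.37 to 0.42 for the log2 change. Pcdhb2 and Pcdhb4, on the sides of Pcdhb3, had log2 changes of 0.34 (interval -0.70 to 1.38) and -0.27 (interval -0.68 to 0.15). Pcdhb8, before Pcdhb9, had a log2 change of -0.09 (interval -0.50 to 0.33). Pcdhb7, among the 2 highest genes, averaged 13.9 ± 2.13 CPM in APPko and 18.3 ± 1.79 CPM in wildtype, with a log2 change of -0.40 (interval -0.64 to -0.15). It was called lower by DESeq2 but not by edgeR.

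Across the tested beta genes the log2 change showed little relation to position, GC content or exon length, with Spearman rho of 0.08, 0.10 and -0.02 over 21 genes that share their libraries. The median GC content was 46.6% in beta, 47.7% in alpha and 52.4% in gamma, beside 48.9% over all tested genes. With a GC trend between libraries removed, 3 beta genes, Pcdhb9, Pcdhb11 and Pcdhb16, and 0.6% of all tested genes were called lower. In 18 of the 22 beta genes every stretch of read length, 151 bases, was unique to that gene among the annotated transcripts. Pcdhb10, the only called gene among the other 4, was 99.8% unique.

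**Figure D4:**
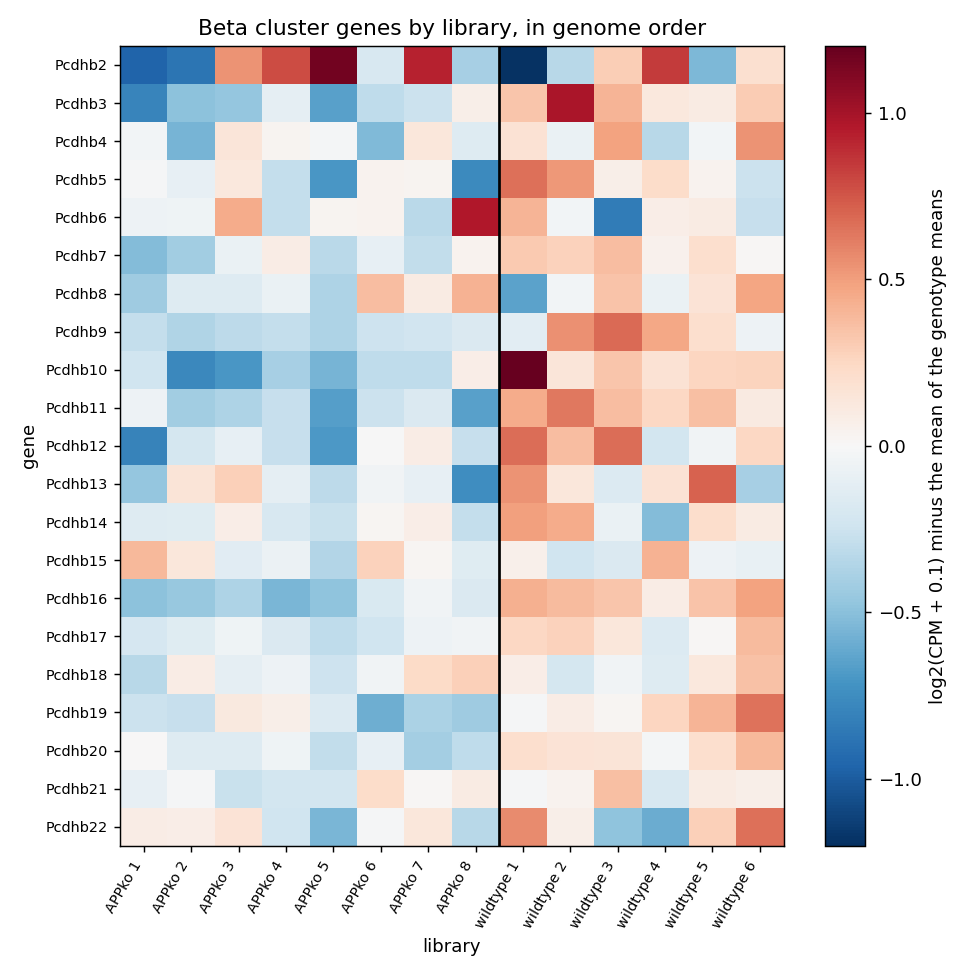
log2(CPM + 0.1) of the 21 tested beta genes (rows, in genome order) in each library (columns, APPko left of the line and wildtype right of it), relative to the mean of the 2 genotype means of that gene. Most rows are blue (lower) in APPko and red (higher) in wildtype, while Pcdhb2, Pcdhb6 and Pcdhb15 are mixed. All 8 APPko cells are blue for Pcdhb9, Pcdhb11, Pcdhb16 and Pcdhb17, the last of which edgeR did not call.

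Without wildtype libraries 2 and 3, whose scaling stood apart, 1 beta gene, Pcdhb16, remained past the threshold, while the median log2 change and the sums kept their direction; 0.0673% of all tested genes were then called lower. DESeq2 called 10 beta genes lower, where it called 4.75% of all tested genes lower, and limma's voom called 5, where it called 0.767%. In f libraries alone 8 beta genes were called lower, where 8.47% of all tested genes were. Over all 25 alternative fits the median log2 change of the tested beta genes lay between -0.39 and -0.27, with 16 to 19 genes negative.

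Among the cell type markers, granule cell markers summed to 598.6 ± 105.5 CPM in APPko, between 435.5 and 775.9, and 833.4 ± 180.0 CPM in wildtype, between 561.5 and 1118, a log2 ratio of -0.48. Of these 6 markers Rfx3, a transcription factor, fell to 125.7 ± 16.3 CPM in APPko, against 179.9 ± 29.9 CPM in wildtype (adjusted p = 0.031, edgeR). Its call was lost in 8 of the 14 fits without 1 library, those without wildtype 2 or 3 or APPko 1, 2, 4, 5, 6 or 7, with adjusted p-values from 0.0015 to 0.17 over all settings. Calb1, which encodes the calcium-binding protein calbindin, held the largest part of the difference between the sums, with 276.8 ± 89.6 CPM in APPko and 453.9 ± 184 CPM in wildtype (adjusted p = 0.14, edgeR). The other 4 granule cell markers had log2 changes from -0.17 to 0.19, and Prox1, a defining granule cell factor, averaged 151.5 ± 33.4 CPM in APPko and 157.9 ± 40.5 CPM in wildtype. Calb1 and Prox1 are named after their values were seen. The 6 general neuron markers summed to 3755 ± 331 CPM in APPko, between 3241 and 4278, and 4405 ± 913 CPM in wildtype, between 3304 and 5769. Their log2 ratio was -0.23, none was called by edgeR, and each had a negative log2 change, from -0.48 to -0.03. Astrocyte markers, 6 genes, summed to 6546 ± 867 CPM in APPko and 6754 ± 804 CPM in wildtype. The 8 lists other than neuron and granule cell had log2 ratios from -0.30 (endothelial and mural) to 0.16 (microglia), and none of their genes was called by edgeR. Rgs5 made up most of the endothelial and mural sum, with a log2 change of -0.40. In the same list Flt1 was at -0.05, while Cldn5, Pecam1 and Pdgfrb were positive, at 0.87, 0.34 and 0.73. These endothelial and mural genes are named after their values were seen. Of all 51 markers 13 had an unadjusted p under 0.05, 8 lower and 5 higher in APPko. DESeq2 called 5 lower and 2 higher, where it called 4.75% of all tested genes lower and 3.38% higher. No share of all tested genes with an unadjusted p under 0.05 is given. Counts of such genes are therefore a description, here and in the other lists. The part of these markers in the lower beta level was not tested.

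Of the alpha genes 11 of 13 passed the filter and none was called by edgeR, DESeq2 or voom; 1, Pcdha8, had an unadjusted p under 0.05. The log2 change was negative in 7 and positive in 4, with a median of -0.25 and SEs from 0.22 to 0.61, so that these genes were measured less precisely than the beta genes. Pcdha8 had 0.925, 1.17 and 1.74 CPM in APPko and 1.16, 1.65 and 2.30 CPM in wildtype, with overlapping groups and a log2 change of -0.49 (interval -0.94 to -0.03). Pcdhac2 had 3.52, 4.79 and 5.72 CPM in APPko and 2.31, 3.20 and 6.69 CPM in wildtype, with a log2 change of 0.31 (interval -0.16 to 0.77). The other C-type alpha gene, Pcdhac1, averaged 0.667 ± 0.275 CPM in APPko and 0.608 ± 0.360 CPM in wildtype. Pcdha6 had a log2 change of -0.65 with an interval of -1.92 to 0.62.

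Of the gamma genes 17 of 21 passed the filter, and none was called or had an unadjusted p under 0.05 with edgeR; DESeq2 and voom called none either. The log2 change was positive in 12 and negative in 5, with a median of 0.45 and a median SE of 0.38. Pcdhga12 had 5.70, 8.63 and 9.83 CPM in APPko and 3.61, 8.93 and 11.4 CPM in wildtype, with a log2 change of -0.07 (interval -0.49 to 0.35). Pcdhgb4 averaged 3.27 ± 0.64 CPM in APPko and 4.49 ± 2.10 CPM in wildtype, with a log2 change of -0.45 (interval -0.96 to 0.06). Pcdhga1 had a log2 change of 0.70, with an interval of -0.35 to 1.74.

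Of the 3 C-type gamma genes, Pcdhgc4, which is known in mice to be needed for the survival of interneurons, averaged 3.00 ± 0.53 CPM in APPko and 3.19 ± 0.53 CPM in wildtype, with a log2 change of -0.09 (interval -0.43 to 0.25). Pcdhgc5 averaged 2.72 ± 0.57 CPM in APPko and 1.99 ± 0.92 CPM in wildtype (log2 change 0.45, interval -0.12 to 1.03). Pcdhgc3, of which 33.1% of exon bases are unshared and which overlaps BC037039, averaged 0.938 ± 0.267 CPM in APPko and 0.575 ± 0.461 CPM in wildtype (log2 change 0.67, interval -0.22 to 1.56). In f libraries alone 3 gamma genes, Pcdhga9, Pcdhgc3 and Pcdhgc5, and 1 alpha gene, Pcdha9, were called higher in APPko, where 7.1% of all tested genes were called higher. Pcdhga9 and Pcdha9 are named because of those values.

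The median within-genotype coefficient of variation was 18.5% over the tested beta genes, 40.8% over alpha and 44.4% over gamma. It was 25.8% over 9950 tested genes with a mean of 1 to 20 CPM, a range above the means of many alpha and gamma genes. Each gene was therefore also ranked among tested genes of like mean CPM, within a factor of 1.25. The median percentile was 33.6 in beta, 49.1 in alpha and 62.2 in gamma.

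**Figure D5:**
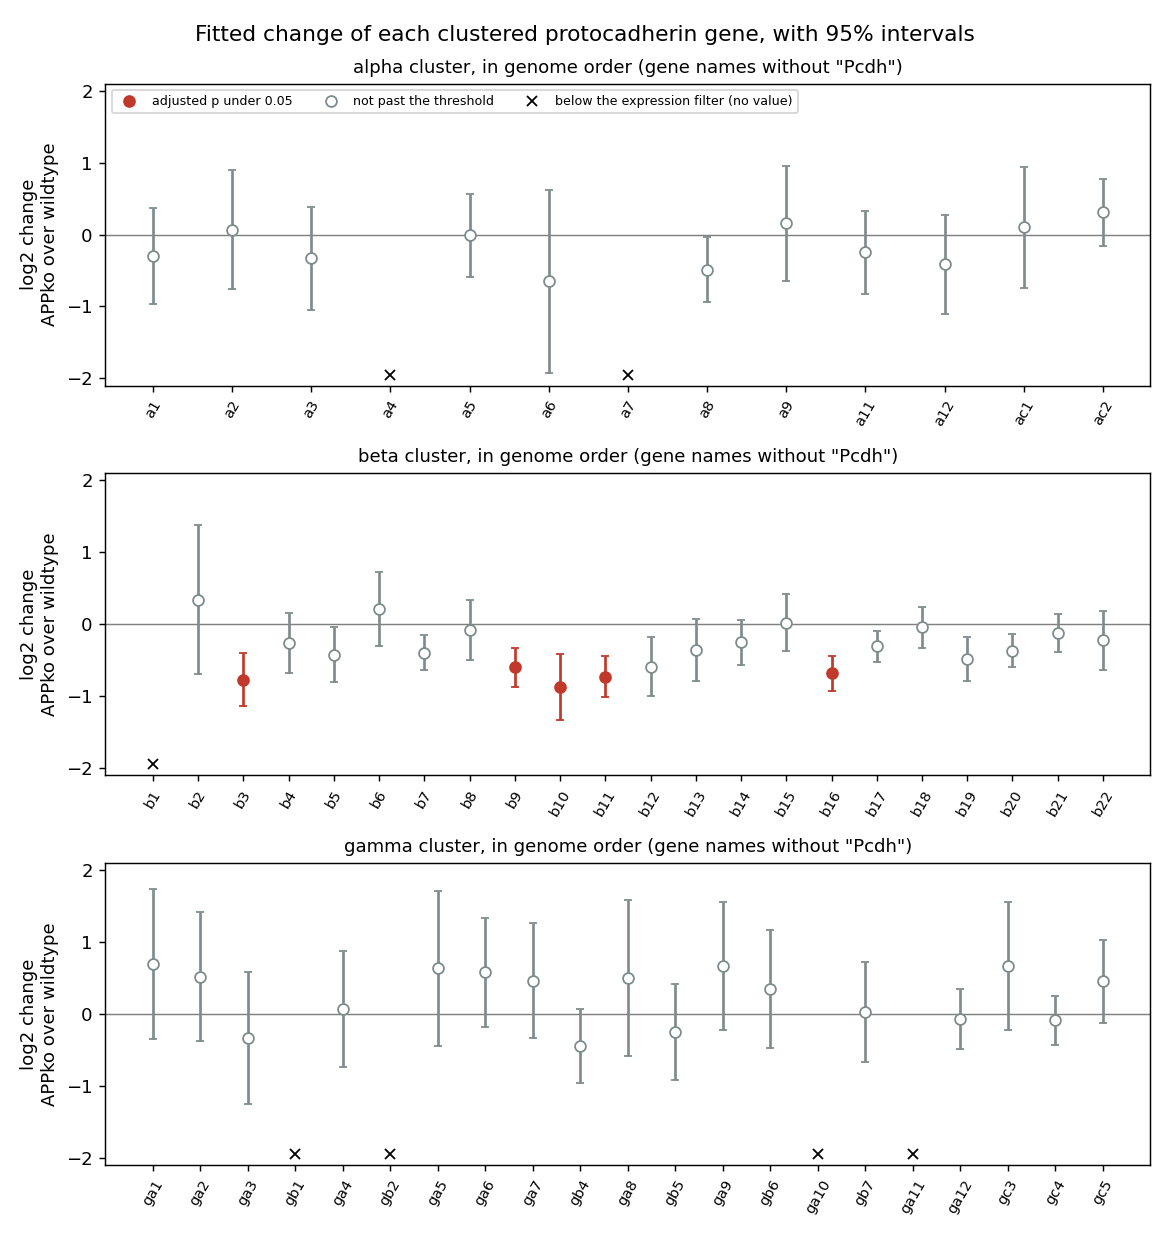
Fitted log2 change, APPko over wildtype, with 95% intervals for each clustered protocadherin gene in genome order, by cluster; filled red points are past the adjusted p threshold of 0.05 and crosses at the bottom edge mark genes below the expression filter, which have no value. The 5 red points are all beta genes and negative, and alpha and gamma intervals are wide.

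7 members were below the filter: Pcdha4, Pcdha7, Pcdhb1, Pcdhgb1, Pcdhgb2, Pcdhga10 and Pcdhga11. The 7 held 0 to 68 counts summed over the APPko libraries and 0 to 57 over the wildtype libraries. Pcdhgb2 is named because of its values: it had 4 to 16 counts per APPko library and 0 to 2 per wildtype library, that is 0.326 ± 0.135 CPM in APPko and 0.063 ± 0.051 CPM in wildtype, with no overlap between the groups. Every APPko library was above every wildtype library in 0.506% of tested genes, a set that leaves out Pcdhgb2 and all others below the filter. In the fit with no expression filter the adjusted p of Pcdhgb2 was 0.14 (edgeR). The wildtype values lie at or under the limit of 3 counts that a count of 0 allows, and no fold is given.

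As a set, the genes around, between and inside the arrays, up to 1 Mb away, showed no like shift. None of the 54 tested was called by edgeR or voom, 9 had an unadjusted p under 0.05 and DESeq2 called 6, where 2.35% of all tested genes were called by edgeR, 1.59% by voom and 8.13% by DESeq2. Their log2 changes were negative in 23 and positive in 31, with a median of 0.05. The 54 include Pcdhgb8 and antisense rows that overlap members. Gm37446, antisense to Pcdhb12 and named for that position, averaged 0.406 ± 0.149 CPM in APPko and 0.671 ± 0.319 CPM in wildtype (log2 change -0.71, adjusted p = 0.30, edgeR).

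The genes that choose, silence, cleave or transmit from these proteins were also compared. Of 50 regulators and partners, all tested, 2 were called lower and 1 higher in APPko by edgeR, where 1.41% of all tested genes were called lower and 0.944% higher. DESeq2 called 13 lower and 2 higher, where it called 4.75% of all tested genes lower and 3.38% higher. With voom 1 was called lower and 1 higher, where it called 0.767% and 0.822% of all tested genes. An unadjusted p under 0.05 was found in 19, of which 16 were lower and 3 higher. Dnmt3a, a DNA methyltransferase, fell to 104.6 ± 7.88 CPM in APPko, against 137.8 ± 22.1 CPM in wildtype (log2 change -0.40, adjusted p = 0.047, edgeR). It was the only gene called by edgeR among 19 genes of promoter choice and silencing, which include Ctcf and the cohesin subunits. The log2 change was negative in 14 of these 19 genes and positive in 5, with a median of -0.22. The cohesin subunits Rad21, Smc1a, Smc3, Stag1 and Stag2 were all negative, from -0.46 to -0.15, with adjusted p-values from 0.073 to 0.33 (edgeR). Ctcf was at -0.20 (adjusted p = 0.36, edgeR). These genes are named after their values were seen. Adam10, the protease that sheds gamma protocadherin ectodomains and also acts on APP, fell to 109.5 ± 7.72 CPM in APPko, against 153.3 ± 36.6 CPM in wildtype (log2 change -0.48, adjusted p = 0.044, edgeR), while none of the other 6 cleavage genes was called.

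Brk1, a subunit of the WAVE actin-regulating complex, rose to 233.2 ± 32.3 CPM in APPko, against 141.8 ± 37.9 CPM in wildtype (log2 change 0.72, adjusted p = 0.025, edgeR), the only call among 18 genes of cytoplasmic signalling. Of the 6 membrane partners none was called. Nlgn1, a neuroligin, averaged 186.7 ± 21.9 CPM in APPko and 303.5 ± 172 CPM in wildtype (adjusted p = 0.11, edgeR), and Nlgn2 61.8 ± 4.99 CPM in APPko and 49.3 ± 13.8 CPM in wildtype (adjusted p = 0.20, edgeR). DESeq2 called 1 of the 6 lower, where it called 4.75% of all tested genes lower, and voom called 0. An unadjusted p under 0.05 was found in 2, 1 lower and 1 higher. The calls depended on single libraries: Dnmt3a and Adam10 passed in 3 of 14 fits without 1 library, those without wildtype 1, 4 or 5, with adjusted p-values over all settings of 0.0046 to 0.22 for Dnmt3a and 0.0022 to 0.24 for Adam10. Brk1 passed in 9, being lost without wildtype 2 or 3 or APPko 2, 5 or 7, with adjusted p-values of 0.00048 to 0.095 over all settings.

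Of the 12 non-clustered protocadherins, which are not part of the arrays, 11 were tested. Pcdh1 lies within 1 Mb of the gamma array and is also counted among the 54 surrounding genes. None was called by edgeR or voom, and DESeq2 called 4 lower, where it called 4.75% of all tested genes lower. An unadjusted p under 0.05 was found in 7, 6 of them lower. The log2 change was negative in 10 of the 11, with a median of -0.31. Pcdh9 averaged 186.9 ± 19.4 CPM in APPko and 253.6 ± 52.6 CPM in wildtype (adjusted p = 0.056, edgeR), and Pcdh11x 22.8 ± 5.02 CPM in APPko and 32.2 ± 4.30 CPM in wildtype (adjusted p = 0.065, edgeR).

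Of 18 classical cadherins and catenins 2 were called lower in APPko by edgeR, where 1.41% of all tested genes were. DESeq2 called 3 lower and 1 higher, where it called 4.75% of all tested genes lower and 3.38% higher. With voom 2 were called lower, where it called 0.767% of all tested genes lower. An unadjusted p under 0.05 was found in 11, of which 10 were lower and 1 higher. Cdh12, a classical cadherin, fell to 13.2 ± 3.57 CPM in APPko, against 23.5 ± 4.17 CPM in wildtype (log2 change -0.83, adjusted p = 0.025, edgeR). Ctnna2, the neuronal alpha-catenin, fell to 28.8 ± 2.20 CPM in APPko, against 40.3 ± 7.75 CPM in wildtype (log2 change -0.49, adjusted p = 0.031, edgeR). The list's median log2 change was -0.32, with 17 of 18 negative, so a negative median was also found in adhesion genes outside the beta array. Without 1 library Cdh12 passed in 7 of 14 fits, being lost without wildtype 2 or 3 or APPko 1, 2, 4, 5 or 7, and Ctnna2 in 5, those without wildtype 1, 4, 5 or 6 or APPko 3, with adjusted p-values over all settings of 0.00044 to 0.11 for Cdh12 and 0.0016 to 0.12 for Ctnna2.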

How the data were processed

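The authors deposited unnormalised read counts for each gene symbol. The submitters' processing notes name GRCm38, featureCounts 2.0.1, STAR 2.7.8a and cutadapt 3.5; cDNA was amplified for 12 and libraries for 10 cycles, per the labels' protocols. For the strand setting and for multi-mapping reads the choice is not given in the sources used here. Of the values from 1 to 20 in a library, 76.9% to 83.5% were even, as when both reads of a pair are counted, so counting error exceeds what a count implies. Positions and exons came from the deposited GENCODE M25 annotation, GC content from GENCODE M21 transcripts.

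Genes were filtered by edgeR's filterByExpr (22150 kept), scaled by TMM and compared, APPko over wildtype, by edgeR's quasi-likelihood test (edgeR 4.0.16, limma 3.58.1, DESeq2 1.42.0, R 4.3.3), without covariate; p-values were adjusted over all tested genes. The procedure was tested on simulated data. Members and lists were chosen with earlier results of these data known. Named genes are called members, the 2 highest and the lowest tested per cluster, C-type members, array neighbours of called beta genes, and in other lists the called genes or the 2 of smallest p; others are marked where named. Sequences are not printed.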

Additional observations from a re-analysis of the deposited data

Results flagged for a closer look

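Among the libraries of 1 genotype, 2 of 50 groups examined (25 values in each genotype) held a library far from the rest, and chance flags about 1 group in 20. For Pcdhb3, wildtype library 2 had 8.496 CPM and the other wildtype libraries 4.564 to 5.681 CPM. For Pcdhb10, wildtype library 1 had 4.413 CPM and the others 2.021 to 2.311 CPM. Both libraries lie on the far side of wildtype from the APPko values. Without wildtype library 2 Pcdhb3 was no longer called, and without wildtype library 1 Pcdhb10 was no longer called.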

How the results depend on the processing

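The direction of all 5 called beta genes held under every alternative run; as their groups do not overlap, this is no sign of stability. The count of beta genes called lower, 5, was 10 with DESeq2, 8 in f libraries alone, 3 with the GC trend removed, 1 without wildtype libraries 2 and 3, and 1 to 9 with single libraries left out. With the replicate number as a block it was 0, where 11 of all tested genes were called lower and 10 higher; the correlations of same-numbered libraries ran from -0.34 to 0.19 over 6 pairs, so the numbers are not taken as pairs. In f libraries alone 1 alpha and 3 gamma genes were called and the gamma log2 ratio was 0.51. The beta log2 ratio by total counts was -0.30.

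Of all tested genes 312 were called lower and 209 higher. The count lower was 170 with no filter, 1052 with DESeq2, 170 with voom, 728 with the header suffix as covariate, 1998 in f libraries, 16 without wildtype 2 and 3, 207 with the length trend removed, 133 with the GC trend removed and 16 to 701 without single libraries. The count higher was 749 with DESeq2, 718 with the suffix, 1674 in f libraries, 19 without wildtype 2 and 3, 139 with the length trend removed, 90 with the GC trend removed and 22 to 735 without single libraries.

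Small log2 changes of uncalled genes changed sign. With the suffix as covariate Pcdhb8 was at 0.045 and Pcdhga12 at 0.014. Pcdhb15 was at -0.077 without wildtype 2 and 3 and at -0.027 with the length trend removed. In f libraries Pcdhgb4 was at 0.23, Pcdhga12 at 0.28 and Pcdhgc4 at 0.026. Without single libraries Pcdhac1 ran from -0.011 to 0.47, Pcdhb8 from -0.18 to 0.014, Pcdhb15 from -0.024 to 0.14 and Pcdhga12 from -0.21 to 0.032. The causes were not tested. At the low counts of most alpha and gamma genes only large differences were detectable. The total-count sums and the settings of the other gene lists were added after seeing the data.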
